A study of Caenorhabditis elegans with 2 samples.

Results

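The piRNA genes of Caenorhabditis elegans were described by where they lay relative to the ChIP-seq peaks of the eGFP-tagged product of C34F6.9. The members were all 15363 genes of biotype piRNA among the 46890 genes that the Ensembl annotation of WBcel235 places on the 6 nuclear chromosomes. Of these, 14714 lay on chromosome IV and 649 on the other chromosomes. Each was scored by whether a peak summit lay within 500 bp of its 5′ end, and the nearest 5′ end of a protein-coding gene was noted for the same summit. The list of members and the outline of the clusters were read from the annotation.

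The peaks came from chromatin immunoprecipitation and sequencing of whole second-stage (L2) larvae, male and female animals pooled, of strain OP324. The strain carries unc-119(ed3) on chromosome III and the transgene wgIs324, which supplies the tagged C34F6.9 product, and no further treatment is named. There was 1 group with 2 replicates, called biological in the labels, so the data hold no comparison between conditions. The tagged protein is made from an inserted transgene in 1 strain, and the promoter that drives it is not given in the labels. The optimal list holds 5692 peaks and is a selection from the pooled list, which holds 30000 peaks and background regions, as does the list of each replicate. Each replicate was also read through its own 5692 highest-signal peaks.

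In worms, piRNAs are called 21U-RNAs, since they are 21 bases long and begin with uridine. Most are transcribed by RNA polymerase II from small units of their own in the germ line, and many such units have an upstream element with the core letters CTGTTTCA, known as the Ruby motif. The units crowd into broad domains of chromosome IV, among and inside ordinary genes. The Piwi protein PRG-1 carries piRNAs to transcripts that are then silenced by secondary small RNAs. Whole L2 larvae hold few germ cells, so a weak peak from all cells and a strong one from a few cannot be told apart.

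The annotated genes had these features. All were 21 bases long, and the first base was T in 96.2% of those on IV and 95.8% of those elsewhere. CTGTTTCA stood on the gene's strand in the 60 bases before the 5′ end of 5105 of the 14714 genes on IV (34.7%). It stood there in 44 of the 649 genes elsewhere (6.78%) and in 66 of 19973 windows of the same length before protein-coding 5′ ends (0.330%). The shorter letters GTTTC, which every CTGTTTCA also holds, were found in 75.5%, 45.5% and 11.6% of these same windows. The motif began at a median of 46 bases before the 5′ end on IV, with quartiles of 45 and 47.

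The following 6 genes are shown because they lie near some of the highest optimal summits, and they show that the motif is present at some of these genes and missing at others. Each line holds the 60 bases before the gene and the 21 bases of the gene, 5′ to 3′ on the gene's strand, from the RefSeq copy of WBcel235. Capitals mark CTGTTTCA, or GTTTC where the longer letters are missing.
21ur-8870, chrIV:6839416-6839496, plus strand: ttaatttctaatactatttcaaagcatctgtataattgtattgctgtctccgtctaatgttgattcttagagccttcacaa
21ur-8767, chrIV:15697184-15697264, minus strand: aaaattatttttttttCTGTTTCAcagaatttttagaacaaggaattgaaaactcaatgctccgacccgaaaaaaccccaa
21ur-13885, chrIV:5604198-5604278, plus strand: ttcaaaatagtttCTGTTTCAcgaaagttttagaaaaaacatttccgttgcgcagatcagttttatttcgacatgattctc
21ur-15257, chrIV:9677414-9677494, minus strand: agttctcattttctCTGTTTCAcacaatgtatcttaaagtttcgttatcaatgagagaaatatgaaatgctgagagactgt
21ur-14724, chrIII:6173354-6173434, plus strand: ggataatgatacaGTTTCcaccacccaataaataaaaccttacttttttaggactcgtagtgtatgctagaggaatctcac
21ur-13751, chrII:1320673-1320753, plus strand: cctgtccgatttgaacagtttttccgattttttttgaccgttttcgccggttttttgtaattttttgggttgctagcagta

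The strongest optimal summit near an IV piRNA gene lay 241 bp before the 5′ end of 21ur-8870. The 101 bases centred on that summit are shown for comparison with the gene's own upstream sequence, and they hold CTGTTTCA on neither strand.
Summit near 21ur-8870, chrIV:6839185-6839285, plus strand: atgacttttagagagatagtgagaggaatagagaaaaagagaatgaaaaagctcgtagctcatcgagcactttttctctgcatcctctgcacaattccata

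The piRNA genes of chromosome IV lay near an optimal summit in a smaller share than the bases of that chromosome did. On IV, 283 of 14714 piRNA genes had an optimal summit within 500 bp (1.92%, 95% Wilson interval 1.71 to 2.16%), whereas 4.90% of all bases of IV did. On the other chromosomes 39 of 649 did (6.01%, 4.43 to 8.11%), beside 5.60% of bases there. The same was true of 11.2% of all annotated genes. Among other genes for small RNAs, 35 of 261 miRNA genes (13.4%), 202 of 612 tRNA genes (33.0%) and 113 of 346 snoRNA genes (32.7%) had such a summit.

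Both replicates gave these values. Replicate 1 placed a summit near 1.84% of the IV genes and replicate 2 near 1.80%, a mean of 1.82 ± 0.0288% (SD, n = 2). For the genes elsewhere the values were 6.16% and 5.70%, a mean of 5.93 ± 0.327% (SD, n = 2). The gap between IV and the rest was larger than the spread between replicates. The backgrounds over all annotated genes were 11.2% in replicate 1 and 11.1% in replicate 2. Neighbouring genes share summits, so the intervals cover counting error only, no gene is an independent observation, and no test was made over genes.

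In the whole lists of pooled and replicate regions the IV genes stood close to the bases of IV. The whole pooled list had a summit within 500 bp of 25.4% of IV piRNA genes, beside 23.7% of bases of IV and 34% of all annotated genes. The whole list of replicate 1 gave 27.6% beside 24.0% of bases and 34.4% of annotated genes. That of replicate 2 gave 22.6% beside 23.4% of bases and 34.2% of annotated genes. The piRNA genes elsewhere had shares of 27.6%, 26.5% and 28.97% in these 3 lists, so in the list of replicate 1 the order of IV and the rest was turned. The low share on IV was seen in the optimal list and in both replicates when read through their own highest-signal peaks.

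The piRNA genes of IV fell into 2 clusters, drawn from the annotation as runs of 100 kb bins with at least 20 piRNA genes. Cluster 1 (chrIV:4800001-7000000) spans 2.2 Mb and holds 2807 piRNA genes and 420 coding genes. Cluster 2 (chrIV:13500001-17300000) spans 3.8 Mb and holds 11534 piRNA genes and 480 coding genes. The remaining 373 piRNA genes of IV lay outside both. In cluster 1, 102 piRNA genes had an optimal summit within 500 bp (3.63%, 3.00 to 4.39%), beside 5.28% of its bases. In cluster 2, 164 did (1.42%, 1.22 to 1.65%), beside 2.71% of its bases. Outside the clusters 17 did (4.56%, 2.86 to 7.18%), beside 5.55% of bases, which lies inside the interval. The order of the clusters was the same in each replicate, with 3.38% and 3.71% in cluster 1 and 1.36% and 1.27% in cluster 2. In the whole pooled list the genes of both clusters stood above the bases instead. Cluster 1 had 32.7% of genes (31.0 to 34.5%) beside 26.4% of bases. Cluster 2 had 23.6% (22.8 to 24.4%) beside 20.9%. The whole list of replicate 1 gave 34.1% beside 27.1% in cluster 1 and 26.0% beside 22.4% in cluster 2. That of replicate 2 gave 31.8% beside 26.8% and 20.1% beside 18.8%.

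**Figure D1:**
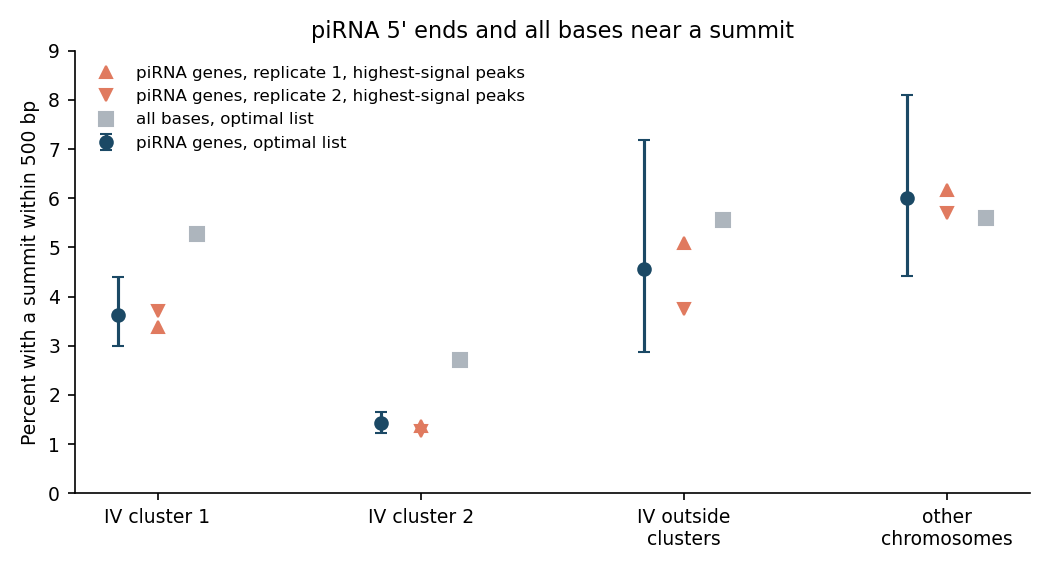
Percent of piRNA genes (circles, optimal list, bars are 95% Wilson intervals; triangles, each replicate's highest-signal peaks) and of all bases (squares, optimal list) with a summit within 500 bp, for each cluster of IV, the rest of IV and the other chromosomes. In both clusters the genes lie below the bases, at 3.63% against 5.28% and at 1.42% against 2.71%; on the other chromosomes the genes, at 6.01%, and the bases, at 5.60%, lie close together.

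Away from IV the counts were small. Optimal summits lay near 9 of 98 piRNA genes on chromosome I, 9 of 109 on II, 10 of 78 on III, 4 of 202 on V and 7 of 162 on X. The value on III (12.8%, 7.12 to 22.0%) and that on V (1.98%, 0.773 to 4.98%) had intervals that did not overlap. All bases were ordered alike, with an optimal summit within 500 bp of 7.28% of bases on III and 3.76% on V, and each of these values lay inside the interval of that chromosome's piRNA genes. In each replicate III stood highest and V lowest, with 10 and 9 genes on III and 4 and 3 on V.

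The spacing of summits around piRNA 5′ ends showed a gap at the genes themselves. Within the clusters, only 5 optimal summits fell in the 1.87 Mb that lies within 100 bp of a piRNA 5′ end, or 2.68 summits per Mb (exact Poisson interval 0.870 to 6.25). At 101-250 bp there were 25.1 per Mb (32 summits), and at 251-500 bp there were 74.5 per Mb (55 summits, 56.1 to 96.9). Beyond that the values were 59.3 per Mb at 501-1000 bp, 34.3 at 1001-2000 bp and 75.9 over 2000 bp. The density within 100 bp was 0.0424 of the density over 500 bp, which was 63.2 per Mb. The clusters differed in this ratio, which was 0.136 in cluster 1 and 0.0121 in cluster 2. Cluster 1 held 4 of the 5 summits within 100 bp, or 9.47 per Mb (2.58 to 24.2), against 69.6 over 500 bp, and cluster 2 held 1, or 0.693 per Mb (0.0175 to 3.86), against 57.2. Replicate 1 had 3.22 summits per Mb within 100 bp and replicate 2 had 2.68, against 64.1 and 65.0 over 500 bp. The gap was seen in both replicates and was far larger than the spread between them.

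**Figure D2:**
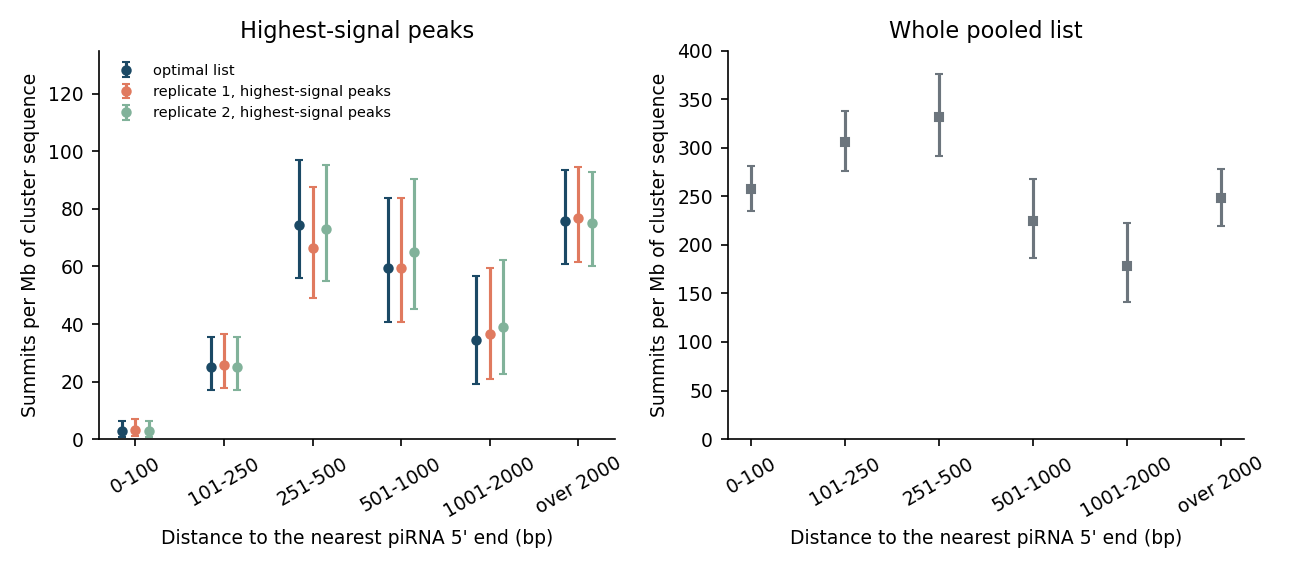
Summits per Mb of cluster sequence (y) against distance from the nearest piRNA 5′ end in bp (x), for the highest-signal peaks (left) and the whole pooled list (right); bars are exact 95% Poisson intervals. On the left, all 3 lists are lowest within 100 bp, at 2.68 to 3.22 per Mb; on the right, the pooled list has 257 per Mb there and between 179 and 332 at the other distances.

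The whole pooled list had no such gap, with 257 regions per Mb within 100 bp (480 regions) and 228 over 500 bp (208 to 249). At 101-250 bp it had 306 per Mb, at 251-500 bp 332, and within 500 bp as a whole 287 (271 to 305). The whole list of replicate 1 had 306 within 500 bp (289 to 324) and 232 beyond (212 to 254). That of replicate 2 had 257 (242 to 274) and 232 (212 to 253), with overlapping intervals. Within 100 bp replicate 1 had 290 (266 to 315) and replicate 2 had 217 (196 to 239). The replicates thus lay on opposite sides of their values over 500 bp. In replicate 2 the interval within 100 bp overlapped that over 500 bp. It lay below those at 101-250 bp (240 to 298) and 251-500 bp (302 to 387). The pooled regions near piRNA genes were mostly of low rank. Of 1115 pooled regions in the clusters within 500 bp of a piRNA 5′ end, 92 reached the optimal list (8.25%, 6.78 to 10.01%), and their median rank by signal was 19060. Of 483 cluster regions over 500 bp away, 134 reached it (27.7%, 23.9 to 31.9%), with a median rank of 12538. In the rest of IV 20.1% of pooled regions did. Among regions also over 500 bp from every coding 5′ end, the values were 7.996% (77 of 963) near piRNA genes and 18.1% (51 of 281) away from them. The median distance from an optimal summit in the clusters to the nearest piRNA 5′ end was 687.5 bp, beside 225 bp for all cluster bases and 215 bp for pooled summits.

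The gap was not seen on the other chromosomes, where there were 70.2 optimal summits per Mb within 100 bp of a piRNA 5′ end (9 summits, 32.1 to 133), 61.5 at 101 to 500 bp and 58.0 beyond. Of these 9 summits, all but that near 21ur-11069, at 1674 bp, also had a coding 5′ end within 500 bp. Whether a gap is present there away from coding 5′ ends was not tested. On IV outside the clusters there were 13.9 per Mb within 100 bp, but that is 1 summit with an interval of 0.352 to 77.5, and 57.8 beyond 500 bp. The replicates gave 3 and 2 summits there, so at this length of sequence a gap was not detectable.

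Base composition moved with the gap. The median GC content of 101-base windows was 27.7% at cluster piRNA 5′ ends and 31.7% over all cluster bases. It was 44.6% at optimal summits in the clusters, 42.6% at optimal summits near an IV piRNA gene and also 31.7% at pooled summits in the clusters. Of the bases within 100 bp of a cluster piRNA 5′ end, 68.8% had windows under 30% GC and 4.10% had 40% or more. Over 500 bp away these shares were 27.4% and 33.9%. Within the 2 upper bands of GC content the gap was smaller, with ratios of 0.180 and 0.182 in place of 0.0424. At 30 to under 40% GC there were 5.93 optimal summits per Mb within 100 bp (3 summits, 1.22 to 17.3), 35.3 at 101 to 500 bp and 32.9 over 500 bp (21.7 to 47.8). At 40% GC and over there were 26.1 (2 summits, 3.17 to 94.4), 136 and 143 (117 to 174), while in replicate 2 the interval within 100 bp reached 115 and overlapped that over 500 bp, 112 to 168. Under 30% GC there were 0 summits within 100 bp, which allows up to 2.88 per Mb, 3.71 at 101 to 500 bp and 6.88 over 500 bp (1.88 to 17.6), whose interval overlaps. From 101 bp outward the density thus differed more between GC bands than between distances. The part of base composition in the gap beyond these bands was not tested.

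**Figure D3:**
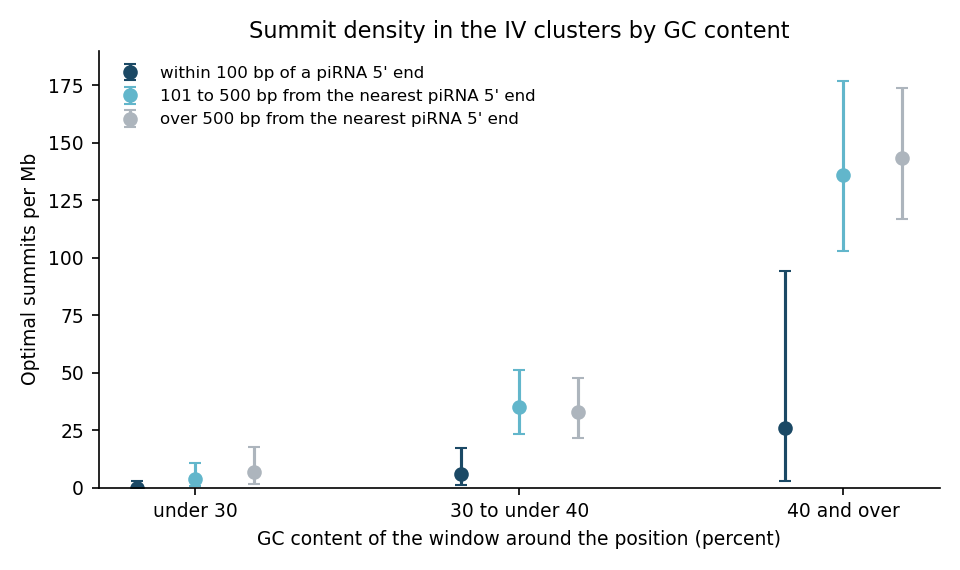
Optimal summits per Mb of cluster sequence (y) in 3 bands of GC content of the surrounding 101 bases (x), for bases within 100 bp, 101 to 500 bp and over 500 bp from the nearest piRNA 5′ end; bars are exact 95% Poisson intervals. Density climbs with GC content at every distance, and the bases within 100 bp are lowest in each band, with 0, 3 and 2 summits.

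The clusters as a whole held fewer optimal summits than the rest of IV. There were 226 in 6 Mb, or 37.7 per Mb (32.9 to 42.9), against 57.5 per Mb (53.2 to 62.1) in the rest of IV, a ratio of 0.655. Replicate 1 gave a ratio of 0.659 and replicate 2 one of 0.679. Cluster 1 had 54.5 per Mb, close to the rest of IV, and cluster 2 had 27.9. In the whole pooled list the ratio was 0.931. The coding genes inside the clusters also had summits less often. Of 900 coding genes there, 113 had a 5′ end within 500 bp of an optimal summit (12.6%, 10.5 to 14.9%), beside 439 of 2381 on the rest of IV (18.4%, 16.9 to 20.05%) and 17% of all coding genes. The replicates gave 12.3% and 12.6% inside the clusters and 18.4% and 17.4% outside them on IV. Coding genes were also sparser per bin in the clusters, with a median of 14 per 100 kb bin against 20 outside, and the part of that in the lower summit density was not tested.

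**Figure D4:**
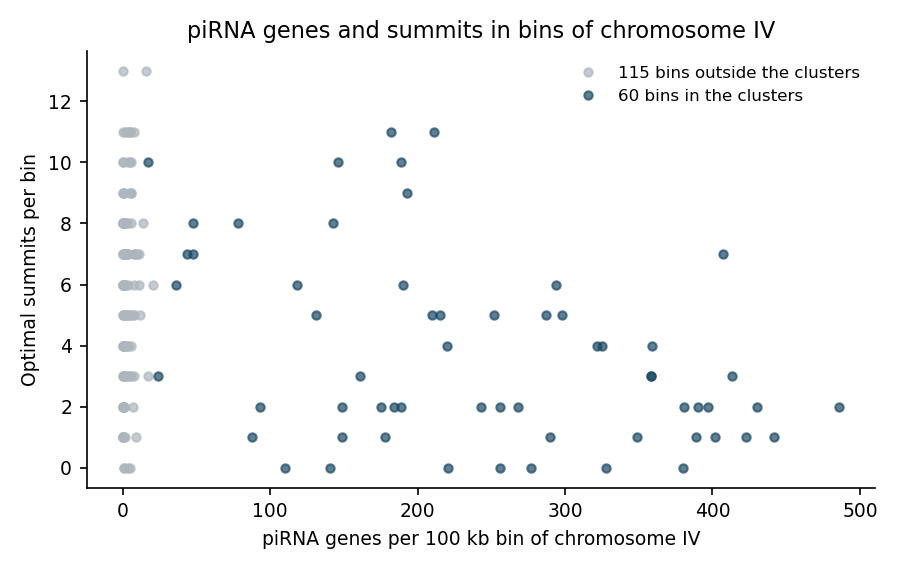
Optimal summits (y) against piRNA genes (x) in 100 kb bins of chromosome IV, 60 bins in the clusters (dark) and 115 outside (grey). Cluster bins have a median of 220.5 piRNA genes and 3 summits, with a range of 0 to 11 summits; bins outside have a median of 2 piRNA genes and 6 summits, with a range of 0 to 13.

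The bin with most piRNA genes held 486 of them, 2 coding genes, 30 pooled regions and 2 optimal summits. Summits per bin overlapped widely between the clusters and the rest.

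Where the piRNA genes lay relative to coding genes differed between IV and the other chromosomes. On IV, 11.2% of piRNA genes lay within 500 bp of a coding 5′ end, 34.1% lay in a coding intron and 3.55% in a coding exon. Elsewhere these shares were 30.5%, 24.7% and 31.0%. Off IV, the piRNA genes within 500 bp of a coding 5′ end had an optimal summit in 25 of 198 cases (12.6%, 8.70 to 17.97%), beside 11.6% of bases equally close to coding 5′ ends. Those farther away had one in 14 of 451 (3.104%, 1.86 to 5.14%), beside 3.796% of bases. On IV the 2 values were 43 of 1649 (2.61%, 1.94 to 3.49%) and 240 of 13065 (1.84%, 1.62 to 2.08%). In the clusters 8.14% of the bases within 500 bp of a coding 5′ end and 2.65% of the others had a summit within 500 bp. Both kinds of base thus exceeded the IV piRNA genes of the same kind, most of which lie in the clusters.

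Genes of IV with the Ruby motif had an optimal summit within 500 bp in 122 of 5105 cases (2.39%, 2.01 to 2.85%), and those without it in 161 of 9609 (1.68%, 1.44 to 1.95%). The replicates gave 2.31% and 2.23% with the motif and 1.59% and 1.57% without it. In cluster 1 the values were 4.39% with the motif and 3.13% without, and their intervals overlapped. Replicate 1 gave 3.76% and 3.13% there, and replicate 2 gave 3.94% and 3.55%. In cluster 2 they were 1.85% (1.47 to 2.32%) and 1.21% (0.984 to 1.48%), and these intervals overlapped slightly. Replicate 1 gave 1.897% and 1.09% there, and replicate 2 gave 1.77% and 1.02%. Within 250 bp the share was 0.451% for motif genes and 0.462% for all IV piRNA genes, which include them. Genes without the motif were not scored on their own at 250 bp.

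In all, 148 optimal summits lay within 500 bp of a piRNA 5′ end, 108 on IV and 40 elsewhere. On IV, 88 of the 108 (81.5%) were nearer to a piRNA 5′ end than to any coding 5′ end. Since 94.0% of the bases in these windows are nearer to a piRNA 5′ end, the summits were nearer to coding ends more often than the bases were. Elsewhere 29 of 40 (72.5%) were nearer to the piRNA 5′ end, beside 84.5% of bases. A coding 5′ end lay within 500 bp of 24 of the IV summits and of 22 of the 40 others. The IV summits had a median distance of 280.5 bp to the piRNA gene and 1981.5 bp to the coding gene, and those elsewhere had 198.5 and 400 bp. On IV they lay upstream of the nearest piRNA gene in 52 cases and downstream in 56, and elsewhere in 32 and 8.

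**Figure D5:**
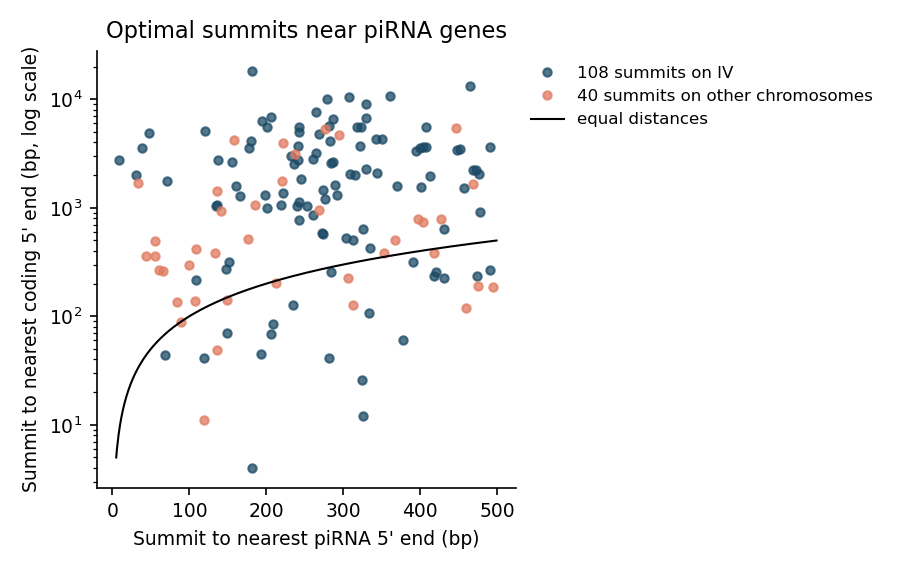
Distance from each optimal summit near a piRNA gene to the nearest coding 5′ end (y, bp, log scale) against its distance to the nearest piRNA 5′ end (x, bp), for 108 summits on IV and 40 elsewhere. Points above the line of equal distances are nearer to the piRNA gene; these are 88 of the IV summits and 29 of the others.

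These summits were found again in the replicates about as often as others. Both replicate lists had a summit within 100 bp for 103 of the 108 on IV and for all 40 elsewhere, beside 94.4% of all optimal summits. Counting only each replicate's 5692 highest-signal peaks, 70.4% of those on IV and 80% of the others were matched in both, beside 75.3% of all. The summits near IV piRNA genes had a median signal percentile of 37.8 within the optimal list (quartiles 16.1 and 72.6), and those off IV 53.5. Cluster summits over 500 bp from every piRNA gene stood at 64.2. The optimal list is itself made from both replicates, so these matches describe it and are no separate support.

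The 5 strongest summits near piRNA genes on IV all lay over 1000 bp from coding 5′ ends. Signal is given here as the authors' own value, on no scale shared between lists. The summit near 21ur-8870 (chrIV:6839476-6839496, plus strand) had rank 228 and a signal of 410.385 in the optimal list. It had rank 252 in replicate 1 and 221 in replicate 2, and the nearest coding 5′ end, that of lip-1, a phosphatase that acts on MAP kinase, lay 3723 bp away. The summit near 21ur-15238 (chrIV:6766982-6767002, plus strand) had rank 331, with ranks of 257 and 598 in the replicates, and lay 448 bp from the piRNA gene and 3403 bp from anat-1. That near 21ur-10291 (chrIV:14837999-14838019, minus strand) had rank 379 and lay in an intron, 240 bp from the piRNA gene and 1048 bp from Y57G11C.22. That near 21ur-8767 (chrIV:15697184-15697204, minus strand), a gene with the Ruby motif, had rank 399, with 564 and 277 in the replicates, and lay 6345 bp from Y105C5A.15.

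The region of fkh-7, which encodes a forkhead transcription factor, held several of them. Summits near 21ur-13885 (rank 461), 21ur-3187 (rank 521) and 21ur-8766 (rank 742) all had fkh-7 as the nearest coding gene, at 1602, 854 and 7640 bp. Each lay within 500 bp of 3 piRNA genes, and all 3 of the named genes carry CTGTTTCA. A further summit there, at position 5600504, lay within 500 bp of 9 piRNA genes, the nearest being 21ur-7216 at 276 bp, and had rank 2109. A single other optimal summit had as many, at position 16024321 near 21ur-201 and jac-1, which encodes a catenin of cell junctions, with rank 3078. The remaining summits of highest signal near piRNA genes and over 500 bp from coding 5′ ends lay near 21ur-15257 (rank 620, nearest coding gene nhr-34, for a nuclear hormone receptor), 21ur-12837 (rank 649, sfrp-1, for a secreted frizzled-related protein) and 21ur-8889 (rank 679, Y105C5A.1).

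Of the 10 strongest summits near piRNA genes off IV, 9 had a coding 5′ end within 500 bp. The highest of all near a piRNA gene had rank 80 and a signal of 561.082, with ranks of 64 and 104 in the replicates. It lay 119 bp from 21ur-12279 (chrI:12652385-12652405) and 11 bp from the 5′ end of atp-1, which encodes a subunit of mitochondrial ATP synthase. The summit of rank 273 near 21ur-13751 (chrII:1320733-1320753) was nearer to the piRNA gene, at 109 bp, than to vig-1, a gene for a component of the RNA interference machinery, at 413 bp. The summit of rank 412 near 21ur-14806 lay 418 bp from it and 384 bp from T24B8.3. The summit of rank 464 lay 66 bp from 21ur-11631 and 261 bp from rpl-24.1, which encodes a ribosomal protein, and that of rank 469 lay 306 bp from 21ur-12756 and 227 bp from D2005.4.

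Below these stood 21ur-15024 on X (rank 542, 494 bp, with K10B3.5 at 185 bp) and 21ur-14724 on III (rank 609, 212 bp, with abcf-3 at 201 bp). Of the remaining named summits, that of rank 747 lay 397 bp from 21ur-13651 and 787 bp from K02D10.8. That of rank 758 lay 99 bp from 21ur-7304 and 295 bp from rps-21, a gene for a ribosomal protein. That of rank 912 lay 55 bp from 21ur-12807 and 360 bp from wee-1.3, which encodes a kinase that holds back oocyte maturation.

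The 5 optimal summits within 100 bp of a cluster piRNA 5′ end ranged widely in signal. The closest of all lay 9 bp from 21ur-6233, with rank 5110 in the optimal list, 5879 in replicate 1 and 4798 in replicate 2, and 2745 bp from soc-2, which encodes a scaffold of Ras signalling. The next lay 31 bp from 21ur-13120 with rank 5408, and its rank in replicate 2 was 8326. The others lay 39 bp from 21ur-8870 (rank 3953, with 3734 and 12509 in the replicates), 47 bp from 21ur-5229 (rank 1780) and 69 bp from 21ur-11261 (rank 793). The peak of rank 3953 (chrIV:6839239-6839634) overlaps the peak of rank 228 near the same gene (chrIV:6839078-6839411). The strongest of the 5, that near 21ur-11261, was nearer to the coding gene hda-6, at 44 bp. At the edge of the window, the last summits inside it lay 490 bp from 21ur-10426 (rank 5211), 490 bp from 21ur-15446 (rank 750) and 494 bp from 21ur-15024 (rank 542), and the first outside lay 505 bp from 21ur-7352 and 509 bp from 21ur-11826.

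The protein-coding genes of the piRNA pathway were read as a list of 54, of which 52 were found by name. By the same window 14 of them had an optimal summit (26.9%, 16.8 to 40.3%), beside 17% of all coding genes, a background just inside that interval. The replicates gave 16 and 14. For 8 of the 14 the pathway gene itself had the coding 5′ end nearest to the summit. Among genes for piRNA transcription 4 of 13 had a summit. They were snpc-3.4 (rank 565, 15 bp), snpc-4 (rank 1690, 232 bp), which encodes the SNAPc subunit that marks the piRNA clusters in germ nuclei, snpc-1.1 (rank 2640, 18 bp) and tofu-5 (rank 4186, 147 bp, with nuo-6 nearer at 107 bp). No optimal summit lay within 500 bp of prde-1, a partner of SNPC-4 at the clusters, or of snpc-1.2, snpc-1.3, snpc-3.1 and snpc-3.2. The same held for tofu-4, unc-130, attf-6 and isw-1. For isw-1 the list of replicate 1 had a summit at 130 bp, with rank 2260. The list of replicate 2 and the pooled list had none within 500 bp of it.

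Among the genes listed under piRNA processing 4 of 9 had a summit. They were tost-1 (rank 2025, 160 bp), tofu-1 (rank 2458, 359 bp), pid-3 (rank 3022, 123 bp) and tofu-6 (rank 5203, 149 bp). tofu-1 encodes part of the enzyme that trims precursor 5′ ends, and ruvb-1 was nearer to its summit at 14 bp. tofu-2, pid-1 and erh-2 had no optimal summit. parn-1, for the nuclease that trims 3′ ends, and henn-1, for the methyltransferase that protects them, also had none. Among effector and amplification genes 6 of 30 had a summit, which is near the 17% of all coding genes. These included mut-15 (rank 435, 255 bp), ekl-1 (rank 586, 472 bp) and nrde-4 (rank 601, 320 bp). The others were rde-8 (rank 901, 190 bp), mut-2 (rank 1542, 193 bp) and mut-16 (rank 1883, 491 bp). For mut-15, ekl-1, mut-2 and rde-8 another coding gene was nearer. The list of replicate 1 had no summit within 500 bp of mut-16, and that of replicate 2 had one near the edge, at 495 bp. prg-1 itself and hrde-1, for the nuclear Argonaute of the pathway, had none.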

How the data were processed

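The files are the authors' deposited peak lists of ChIP-seq of eGFP-C34F6.9 in L2 larvae, on the ce11 build. Per the deposited listing of the files, each replicate list was called on that replicate with a control library, which was not analysed here. The pooled list came from the replicates together, and the optimal list was chosen from it by comparing replicates. The aligner and the peak caller were not given in the sources used here, nor were their versions. The deposited signal value of each peak has no scale shared between lists and was used only for ranking within a list. The −log10 q-values deposited with the peaks are equal in all 5692 optimal peaks and ranked nothing. All 5692 optimal peaks were found to be the 5692 pooled peaks of highest signal. No read counts are given, so the depth behind each peak is unknown.

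Summits (start plus deposited offset) were scored against the Ensembl annotation of WBcel235, whose chromosome lengths hold every ce11 peak. Coding 5′ ends were those of all protein-coding transcripts, and ties counted as coding. Clusters joined bins over gaps of up to 300 kb and were at least 1 Mb long. Shares have 95% Wilson intervals and densities exact Poisson intervals, for counting error only. With 1 group of 2 replicates no test was made. The members, lists and alternatives were chosen with earlier results of these data known. Named genes were those at the 10 highest-signal summits near any piRNA gene, near one and over 500 bp from coding ends, and near one off IV, with pathway genes near an optimal summit. Other genes were named after their values were seen, namely those at the nearest, the edge and the most crowded summits, and the pathway genes without a summit. The replicates come from 1 strain, so their spread includes technical differences. The scoring recovered planted answers on simulated data. Work was done in Python 3.11.15 with pandas 2.3.3, numpy 2.4.6, matplotlib 3.10.9 and scipy 1.17.1. The ce10 lists were not used.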

Additional observations from a re-analysis of the deposited data

How the results depend on the processing

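No paired analysis was possible because there is 1 group and no test. All shares move with the window and the list by construction, and the share on IV stayed below that off IV in every alternative given next. With a window of 250 bp the share of piRNA genes near a summit was 0.462% on IV and 3.85% off IV, that of cluster coding genes 8.56% and that of motif genes 0.451%. With 1000 bp these were 4.59%, 9.86%, 15.6% and 5.47%, and 73.2% of the summits near IV piRNA genes were nearer to them than to a coding end. With the 2846 highest-signal optimal peaks they were 0.741%, 3.39%, 9% and 1.04%, with 73.9% nearer, a cluster to rest ratio of 0.710 and a ratio within 100 bp to over 500 bp of 0.0271. With the whole pooled list they were 25.4%, 27.6%, 32.1% and 26.8%, with 93.8% nearer and ratios of 0.931 and 1.13, so the gap at piRNA genes ended there. Only genes over 500 bp from coding ends gave 1.84% on IV and 3.104% off IV, and only summits nearer to the piRNA end gave 1.64% and 4.31%. Clusters from bins with 10 genes gave a ratio of 0.720 and 13.4% of coding genes, and from bins with 50 genes 0.602 and 11.5%. GTTTC in place of the Ruby motif gave 2.01%. The ratio within 100 bp to over 500 bp, with alternatives added after the data were seen, was 0.0595 on bases over 500 bp from coding ends and outside exons, 0.180 at 30 to under 40% GC, 0.182 at 40% GC and over, 0.136 in cluster 1 and 0.0121 in cluster 2. Recurrence of summits near piRNA genes, 96.6% at 100 bp, was 78.4% at 50 bp, 98.6% at 200 bp and 73.0% among the highest-signal peaks. From 1 replicate at a time the ranges were 1.80 to 1.84% on IV, 5.70 to 6.16% off IV, 83.2 to 85.7% nearer, 0.659 to 0.679 and 0.0412 to 0.0502 for the ratios, 12.3 to 12.6% of coding genes, 2.23 to 2.31% of motif genes and 98.0 to 98.6% for recurrence. The number of pathway genes ran from 11 to 20. Without depth, absence from a list cannot be told from low coverage.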

Other observations

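Genes of IV on the minus strand had an optimal summit within 500 bp in 162 of 7419 cases (2.18%, 1.87 to 2.54%) and those on the plus strand in 121 of 7295 (1.66%, 1.39 to 1.98%). Replicate 1 gave 2.09% and 1.59%, and replicate 2 gave 1.83% and 1.77%, so in replicate 2 the strands differed by less than the gap between replicates.

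Within the clusters the coding genes of cluster 1 had an optimal summit in 60 of 420 cases (14.3%, 11.3 to 17.96%) and those of cluster 2 in 53 of 480 (11.04%, 8.54 to 14.2%), with overlapping intervals.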
